A study of Mus musculus with 56 samples.

Results

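The regions described here are stretches of the mouse genome, away from annotated genes, at which initiating RNA polymerase II was detected in untreated macrophages and was not detected after 1 hr of IL-4. They were defined by peak calls in 4 chromatin immunoprecipitation sequencing (ChIP-seq) samples of RNA polymerase II phosphorylated at serine 5 of its C-terminal domain (RNAPII-pS5). Peaks of the 4 samples that overlapped by at least 1 bp were merged, which gave 41245 regions. A region was kept where both untreated (ctrl) samples had a peak, neither IL-4-treated (1hIL4) sample had one, and every peak in it was annotated as intergenic. This left 918 lost regions of 13628 intergenic regions. The other classes of intergenic region that served for comparison were 6139 kept regions with a peak in all 4 samples, 589 gained regions with a peak in both 1hIL4 and neither ctrl sample, and 1085 regions with a peak in both ctrl and a single 1hIL4 sample.

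All samples were bone marrow-derived macrophages (BMDMs) of wild-type C57BL/6 mice aged 8 to 12 weeks, differentiated for 6 days with L929 cell supernatant as the source of M-CSF. For the 1 hr experiment, ctrl cells received no cytokine and 1hIL4 cells received 20 ng/ml IL-4 for 1 hr. ChIP-seq was done with 2 samples per group for RNAPII-pS5, the elongating form phosphorylated at serine 2 (RNAPII-pS2), H3K27Ac, the acetyltransferase p300, the transcription factor PU.1 and the histone deacetylases HDAC1, HDAC2 and HDAC3. For the pretreatment experiment, cells were left untreated (ctrl_ctrl), were given IL-4 for 24 hr (24hIL4_ctrl), were given 100 ng/ml LPS for 1 hr (ctrl_1hLPS), or were given LPS after 24 hr of IL-4 (24hIL4_1hLPS), with antibodies to RNAPII-pS5, RNAPII-pS2 and the NF-kB subunit p65 (2 samples per condition). Chromatin was cross-linked with DSG and formaldehyde, and no group carried a mutation or transgene. The study calls its replicates biological, but the labels do not say whether the 2 samples of a group came from separate mice, so that the p-values below measure the spread between these samples.

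IL-4 acts on macrophages through its receptor and the transcription factor STAT6, which enters the nucleus within minutes and binds enhancers. Enhancers of macrophages are opened by PU.1 together with C/EBP, AP-1 and RUNX factors, carry H3K27Ac written largely by p300 and its paralog CBP, and recruit RNA polymerase II, which makes short noncoding transcripts there. RNA polymerase II phosphorylated at serine 5 is the form found near start sites of transcription, at promoters and enhancers alike, and histone deacetylases remove the acetyl marks. STAT6 is best known in macrophages as an activator of alternative polarization genes, and LPS acts through TLR4 to bring NF-kB, including p65, to inflammatory enhancers.

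Sequences of 200 bases around the centre of the strongest ctrl peak are shown for 8 lost regions (mm10, plus strand). The first 4 had the highest lower-of-2 ctrl RNAPII-pS5 scores, and the other 4 had the largest negative log2 differences of H3K27Ac (F830045P16Rik, Fcgr1) and of p300 (Mef2a, Prkrip1) among members with that mark in both samples of a group. At Fcgr1 and Mef2a a peak stood within 500 bp in the 1hIL4 samples, and with it counted the difference was near 0. Each is named by the gene that the deposited annotation puts nearest, which does not say that the region regulates that gene. Capitals mark matches, on either strand, to short motifs of PU.1 (AGGAAG), AP-1 (TGANTCA), C/EBP (TTGCNNAA), RUNX (TGTGGT), STAT6 (TTC, any 4 bases, GAA), STAT factors in general (TTC, any 3 bases, GAA), NF-kB (GGGNNNTCC) and IRF (GAAA, any 2 bases, GAAA).
Gstm4, chr3:108061425-108061624: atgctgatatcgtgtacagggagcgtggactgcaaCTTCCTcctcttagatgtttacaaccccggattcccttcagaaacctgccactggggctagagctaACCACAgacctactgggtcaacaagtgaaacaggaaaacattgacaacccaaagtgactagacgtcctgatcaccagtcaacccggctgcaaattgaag
2610044O15Rik8, chr8:129253760-129253959: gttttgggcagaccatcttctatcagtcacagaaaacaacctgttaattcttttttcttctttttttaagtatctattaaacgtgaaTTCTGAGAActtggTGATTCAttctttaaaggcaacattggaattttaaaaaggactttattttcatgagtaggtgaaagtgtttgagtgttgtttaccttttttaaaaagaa
BC005537, chr13:24790748-24790947: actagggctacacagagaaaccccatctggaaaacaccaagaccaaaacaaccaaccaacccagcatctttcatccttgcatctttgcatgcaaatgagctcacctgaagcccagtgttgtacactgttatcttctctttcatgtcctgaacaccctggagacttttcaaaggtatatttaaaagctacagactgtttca
Tec, chr5:72883823-72884022: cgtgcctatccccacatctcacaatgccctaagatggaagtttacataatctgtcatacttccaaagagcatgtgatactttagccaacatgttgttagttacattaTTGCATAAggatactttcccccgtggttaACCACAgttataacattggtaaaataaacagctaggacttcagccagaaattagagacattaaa
F830045P16Rik, chr2:129545713-129545912: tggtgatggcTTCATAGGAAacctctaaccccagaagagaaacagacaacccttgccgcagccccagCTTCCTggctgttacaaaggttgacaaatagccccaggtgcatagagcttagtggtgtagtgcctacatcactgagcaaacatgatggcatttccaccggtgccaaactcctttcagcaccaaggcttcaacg
Fcgr1, chr3:96302286-96302485: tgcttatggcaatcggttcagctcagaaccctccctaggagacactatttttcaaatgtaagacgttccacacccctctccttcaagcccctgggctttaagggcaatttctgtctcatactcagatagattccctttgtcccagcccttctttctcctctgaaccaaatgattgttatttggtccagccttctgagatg
Mef2a, chr7:67463669-67463868: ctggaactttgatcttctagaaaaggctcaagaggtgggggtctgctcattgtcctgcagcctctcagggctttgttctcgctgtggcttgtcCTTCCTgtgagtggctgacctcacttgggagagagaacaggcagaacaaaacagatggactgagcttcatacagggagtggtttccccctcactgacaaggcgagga
Prkrip1, chr5:136211796-136211995: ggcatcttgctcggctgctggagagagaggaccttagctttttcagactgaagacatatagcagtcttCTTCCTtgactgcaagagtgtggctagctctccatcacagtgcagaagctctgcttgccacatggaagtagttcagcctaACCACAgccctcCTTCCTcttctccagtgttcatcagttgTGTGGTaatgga
The Gstm4 window held a PU.1 and a RUNX match, the Tec window held a C/EBP and a RUNX match, and the Prkrip1 window held PU.1 and RUNX matches. The 2610044O15Rik8 window held an AP-1 match beside a STAT match with the 3-base spacer. The F830045P16Rik window was the only one of the 8 with a match to the STAT6 motif with the 4-base spacer, and it also held a PU.1 match. No match to these motifs was found in the BC005537 and Fcgr1 windows, the latter of which lies in a region with H3K27Ac scores above 500 in both ctrl samples.

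Some features of the libraries touch the values below. In the 1 hr experiment, the peak names inside the 4 RNAPII-pS2 lists carry the opposite treatment to their labels. Groups follow the labels here, and RNAPII-pS2 values of that experiment are given as those of the libraries labelled ctrl or 1hIL4. At the gained regions, where 147 were tested, RNAPII-pS2 by the labels was lower at 95 and higher at 0. Of all tested regions, 11.0% were lower and 10.5% higher. Of the 95, 78 had peaks in the libraries labelled ctrl alone, where the filter fixed the direction. With a peak in all 4 libraries, 14 of 57 gained regions were lower and 0 higher. The p300 sample ctrl replicate 1 had 44787 peaks against 66710 to 69360 in the other 3, and its scores were lower throughout. The labels and the study's ChIP-seq methods give the same antibody catalogue number for HDAC3 and H3K27Ac. The study's reagent table lists a separate one for each. The pretreatment RNAPII-pS5 lists held 14476 to 22149 peaks against 30420 to 35424 in the 1 hr lists. The H3K27Ac replicates correlated at r = 0.993 across regions, whereas replicates of the other antibodies gave r between 0.58 and 0.96, so that small H3K27Ac differences pass a test. RNAPII-pS5 peaks lay within 1000 bp of a start site of all 10 macrophage marker genes checked in all 4 samples of the 1 hr experiment. The same held for 2 of 10 T and B lymphocyte markers (Cd3d, Lck) and 0 of 10 granulocyte and mast cell markers. It also held for 2 of 10 stromal, endothelial and epithelial markers (Cdh5, Pecam1).

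The lost regions were narrow and weak next to the kept regions. Their median width was 407 bp (range 222 to 1225 bp) against 731 bp for kept and 433 bp for gained regions. The peak score was taken, from its values, to be the −log10 of the p- or q-value of the peak caller. Its median at lost regions was 6.5 in ctrl replicate 1 (range 1.84 to 27.16) and 5.605 in ctrl replicate 2 (range 2.06 to 20.4). Kept regions had medians of 19.48 and 13.75. These scores chose the members and are given as a description only. The lower of the 2 ctrl scores lay between 1.84 and 19.99 with a median of 4.84, was at or above 5 in 399 members (43.5%) and at or above 10 in 33 (3.59%). Just outside the rule, the 1085 regions with a peak in a single 1hIL4 sample had a score of 1.82 to 22.05 (median 5.66) in that sample, and their lower ctrl score had a median of 5.64. Scores in the 4 lists begin at 1.68 to 1.76, so that many members lie close to the lowest scores called.

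The 2 strongest members were those nearest Gstm4, a glutathione S-transferase gene (RNAPII-pS5 scores 20.26 and 19.99 in ctrl, chr3:108061332-108061722), and 2610044O15Rik8 (27.16 and 19.11, chr8:129253412-129254338). BC005537 followed with 18.91 and 20.4, then Tec, which encodes a nonreceptor tyrosine kinase of blood cells, with 18.38 and 18.91. Scrg1 had 17.74 and 19.74, and N4bp1 had 18.38 and 15.76. The members nearest 2610044O15Rik8, BC005537 and N4bp1 had neither H3K27Ac nor p300 peaks in any sample, although they ranked among the first 6. Members in the rest of the first 15 lay near Gm20822, Irf2bpl, Xirp1, Adrb1, Icam2, Zfpm1, Tex35, Itga4 and Dnahc17. The Xirp1 member (chr9:120042996-120043677) lies, by the GENCODE vM21 annotation, inside Cx3cr1, the gene of the fractalkine receptor.

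Lost regions were scattered and mostly far from start sites. The median distance to the nearest annotated start site was 27794.5 bp against 23694 bp for kept regions. A share of 22.0% lay within 10 kb, 62.3% between 10 and 100 kb and 15.7% farther out, next to 25.3%, 61.8% and 12.9% of kept regions. The peak centre lay in an LTR retrotransposon in 127 members (13.8%, kept 10.2%), in a LINE in 6.43% and in a SINE in 5.34%, and any annotated repeat held 271 (29.5%, kept 22.3%). By GENCODE vM21, a larger annotation than the one deposited, 217 members (23.6%) overlapped a gene, of which 122 overlapped a long noncoding RNA gene and 78 a protein-coding gene. A second copy of at least 95% identity over at least 80% of the length was found in the genome for 15 members (1.63%), where reads cannot be placed with certainty, against 0.977% of kept regions.

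The nearest other lost region was a median of 263306 bp away, and 106 members (11.5%) had one within 10 kb. The 918 members were assigned to 771 nearest genes. Of these genes, 653 had 1 member, 110 had 2 or 3, and 8 had 4 or more. Marcks, which encodes a substrate of protein kinase C, and Zfp386 had 5 each. B020031M17Rik, Gm13498, Gm17746, Gm20822, Supt20 and Zfat had 4 each. The Zfp386 members lie 289704 to 839585 bp from that gene, each overlapping an immunoglobulin heavy chain variable segment (Ighv) by GENCODE, and the Gm20822 members lie on chromosome Y. There were 12 groups of at least 3 members within 50 kb of each other, which held 39 members, the largest being 5 members on chr13 between 119991443 and 120071169. A promoter peak of RNAPII-pS5 in all 4 samples was annotated to 257 of the 771 nearest genes (33.3%), against 34.2% for the nearest genes of kept regions, and 384 had none. By the same annotation, 2 of the 10 macrophage markers had a promoter peak in all 4 samples, while all 10 had a RNAPII-pS5 peak within 1000 bp of a start site.

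In untreated cells most lost regions carried p300, and about as many as not carried H3K27Ac. A p300 peak overlapped 725 members (79.0%) in both ctrl samples, a PU.1 peak 540 (58.8%) and an H3K27Ac region 467 (50.9%). The corresponding shares of kept regions were 85.3%, 75.7% and 68.9%. HDAC1 was present in both ctrl samples at 322 members (35.1%, kept 64.8%), HDAC2 at 306 (33.3%, kept 61.1%) and HDAC3 at 134 (14.6%, kept 38.1%). All of H3K27Ac, p300 and PU.1 marked 317 members (34.5%, kept 55.4%), and all 3 deacetylases marked 81 (8.82%, kept 33.1%). None of these 6 antibodies had a peak in any of their 24 samples at 106 members (11.5%, kept 5.03%).

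The share of lost regions with a peak of each antibody was compared between ctrl and 1hIL4 samples, which needs no score. HDAC1 moved furthest, from 45.9% ± 5.39 of members in ctrl to 26.1% ± 1.08 in 1hIL4 (mean ± SD, n = 2 each). H3K27Ac went from 53.4% ± 0.308 to 46.4% ± 0.154, and PU.1 from 65.6% ± 1.93 to 61.4% ± 2.70. For these 3 antibodies the groups did not overlap. The HDAC1 lists themselves held 30511 and 26836 peaks in ctrl and 23270 and 22340 in 1hIL4, and the share of all intergenic regions with HDAC1 was 53.6% and 47.5% in ctrl and 43.2% and 40.9% in 1hIL4. The part of the list lengths in the drop at lost regions was not tested. HDAC2 went from 45.2% ± 4.31 to 37.0% ± 9.94, HDAC3 from 22.2% ± 7.70 to 20.5% ± 1.23 and p300 from 82.8% ± 5.16 to 84.5% ± 0.231, with overlapping groups. RNAPII-pS2 went from 10.2% ± 1.23 in the libraries labelled ctrl to 14.8% ± 1.08 in those labelled 1hIL4. With 2 samples against 2, a two-sided exact permutation test gave p = 0.333 for H3K27Ac, PU.1, HDAC1 and RNAPII-pS2, the smallest value it can give. At kept regions HDAC1 also went down, from 72.6% to 63.3%, while H3K27Ac stood at 70.2% and 69.9%, PU.1 at 79.4% and 80.1%, and HDAC3 at 46.7% and 53.1%.

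**Figure D1:**
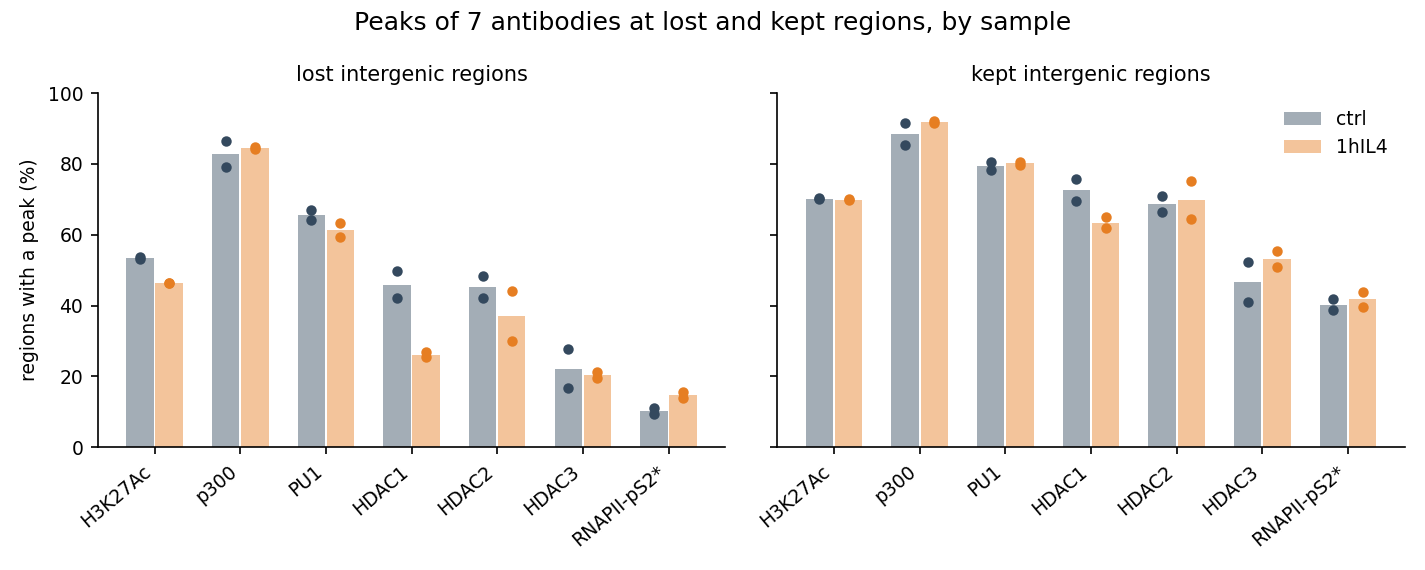
Share of lost (left) and kept (right) intergenic RNAPII-pS5 regions with a peak of each of 7 antibodies, in percent of regions. Bars are means of 2 samples and points are the samples, ctrl and 1hIL4 side by side; * marks RNAPII-pS2, whose peak names state the opposite treatment to the labels. HDAC1 falls from 45.9% to 26.1% of lost regions and H3K27Ac from 53.4% to 46.4%, and the bars of kept regions are higher for every antibody.

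Scores of each antibody were then compared between 1hIL4 and ctrl with limma. The regions tested were all merged RNAPII-pS5 regions that had peaks of the antibody in 2 or more of its 4 samples. Each sample was first centred on its median over the regions with a peak of the antibody in all 4 samples. Missing peaks received the lowest score of the antibody. Regions were called lower or higher at an unadjusted p of at most 0.05, the cut-off the study used for changed regions, and each count is set beside the share of all tested regions called in that direction. Log2 values below are differences of centred log2 scores between 1hIL4 and ctrl.

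H3K27Ac went down at most lost regions at which it could be tested. Of 491 tested members, 346 (70.5%) fell and 13 (2.65%) rose, whereas of all 24702 tested regions 28.1% fell and 24.3% rose. After Benjamini-Hochberg adjustment 306 still fell and 9 rose. The median difference over the tested members was −0.64 (quartiles −0.96 and −0.32), and it was below 0 in 90.0% of the tested members. Kept regions had a median of −0.12 with 37.8% lower, and at gained regions 85.6% were higher. Members that passed the filter through their ctrl samples alone had to be lower, and there were 47 of these, of which 44 fell. Among the 385 members with an H3K27Ac region in every sample, 285 fell and 11 rose. In a fit limited to regions with H3K27Ac in every sample, 305 of the 385 fell (79.2%), against 30.9% of all such regions, with a median of −0.62. The share that fell was 73.9% in members with both ctrl RNAPII-pS5 scores at or above 5 and 67.3% below, 67.4% within 10 kb of a start site and 71.2% beyond, and 65.4% in repeats and 72.3% outside.

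p300 scores moved the same way once samples were centred, and only then. Of 783 tested members, 292 (37.3%) fell and 18 (2.30%) rose, against 10.8% and 15.6% of all 32241 tested regions. Adjustment left 50 lower and 0 higher. The median difference was −0.55, kept regions had 9.07% lower, and gained regions had 84.5% higher. With p300 peaks in every sample, 347 of 719 members fell (48.3%) against 17.5% of all such regions, and 193 remained after adjustment. Without centring, 9 members were lower and 19 higher. The median uncentred difference was 0.20 at members and 0.75 over all regions, so that scores at members rose less than those of all regions. The uncentred IL-4 scores of most members lie between those of the 2 ctrl samples, of which ctrl replicate 1 had few peaks. The p300 decreases are thus relative to the other regions of the same samples.

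The remaining antibodies gave smaller shares. PU.1 fell at 59 of 618 tested members (9.55%), 15 of them with PU.1 in ctrl alone, and rose at 7, against 4.43% and 6.94% of all tested regions, and with PU.1 in every sample it fell at 48 of 470 (10.2%) against 4.95%. Without centring, PU.1 was lower at 24 and higher at 13 members. The median uncentred PU.1 difference was 0.09 at members and 0.36 over all regions. The PU.1 decreases are thus, like those of p300, relative to the other regions of the same samples. HDAC1 fell at 87 of 408 (21.3%) and rose at 7, against 8.51% and 3.92%. Of the 87, 76 came from members with HDAC1 in both ctrl and neither 1hIL4 sample, which numbered 92, and with HDAC1 in every sample 8 of 120 fell (6.67%) against 3.11%. HDAC2 fell at 47 of 439 (10.7%) and rose at 10, against 4.93% and 7.20%, and 29 of the 47 had HDAC2 in ctrl alone and 9 of the 10 in 1hIL4 alone. HDAC3 fell at 39 of 214 (18.2%) and rose at 10, against 4.31% and 13.5%, and 24 of the 39 had HDAC3 in ctrl alone and 7 of the 10 in 1hIL4 alone. The PU.1 and HDAC1 counts with a peak in every sample come from fits limited to such regions. Counts of HDAC2 and HDAC3 from such fits are given in the last section. The main fits were also read at members with the antibody in all 4 samples. There HDAC1 was lower at 1 of 120, HDAC2 at 1 of 176 and HDAC3 at 7 of 87, and higher at 1, 0 and 0. Such kept regions were lower at 24 of 2966, 22 of 3287 and 22 of 2108, and higher at 37, 30 and 44. The direction of calls with peaks in 1 group alone was fixed by the filter. None of the lower calls of PU.1, HDAC1, HDAC2 and HDAC3 at members passed adjustment in limma, so 0 of 59, 0 of 87, 0 of 47 and 0 of 39 remained. RNAPII-pS2 rose at 49 of 121 members (40.5%) and fell at 0 in the libraries labelled 1hIL4, against 10.5% higher and 11.0% lower of all regions, with 12 higher after adjustment. Of the 49, 19 had peaks in the libraries labelled 1hIL4 alone. With the treatments that the peak names state, these signs would be the reverse.

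**Figure D2:**
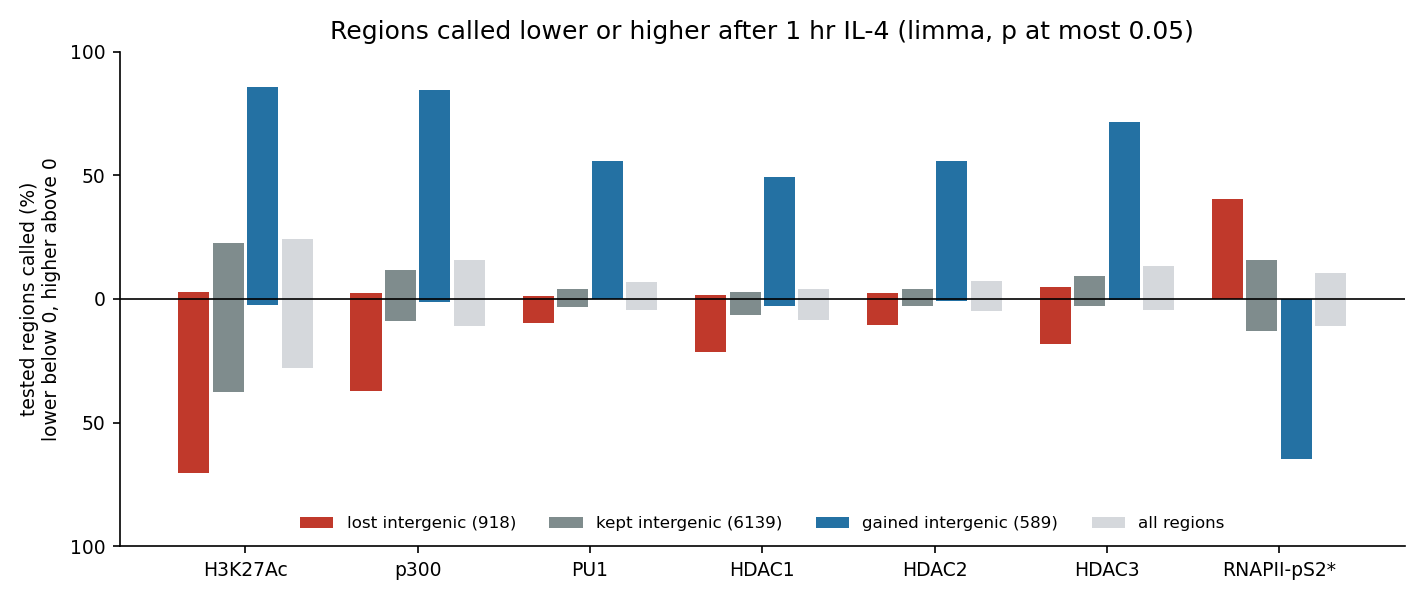
Percent of tested regions called higher (above 0) or lower (below 0) in 1hIL4 than in ctrl at an unadjusted p of at most 0.05 in limma, for 7 antibodies and for lost, kept, gained and all regions. H3K27Ac is lower at 70.5% of tested lost regions and 28.1% of all regions, and gained regions point upward for every antibody but RNAPII-pS2. Most upward deacetylase calls at gained regions had peaks in 1hIL4 alone, where the filter fixed the direction. With peaks in all 4 samples, 12 of 57 (HDAC1), 11 of 83 (HDAC2) and 8 of 29 (HDAC3) gained regions were higher, and 0, 1 and 0 lower. The * marks RNAPII-pS2, drawn by the labels.

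H3K27Ac and p300 could both be tested at 487 members. Both fell at 157 (32.2%), H3K27Ac alone at 186, p300 alone at 21 and neither at 123. At kept regions both fell at 6.50%. Calls were also counted over H3K27Ac, p300, PU.1 and the 3 deacetylases. Of all 918 members, 386 were lower for none, 288 for 1, 165 for 2, 67 for 3 and 12 for 4 or more. Of 6139 kept regions, 3929 were lower for none, 1673 for 1, 416 for 2, 104 for 3 and 17 for 4. An antibody that could not be tested at a region counts here as not lower. Only 491 members were tested for H3K27Ac and 214 for HDAC3. Most lower deacetylase calls at members had peaks in ctrl alone, where the filter fixed the direction.

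**Figure D3:**
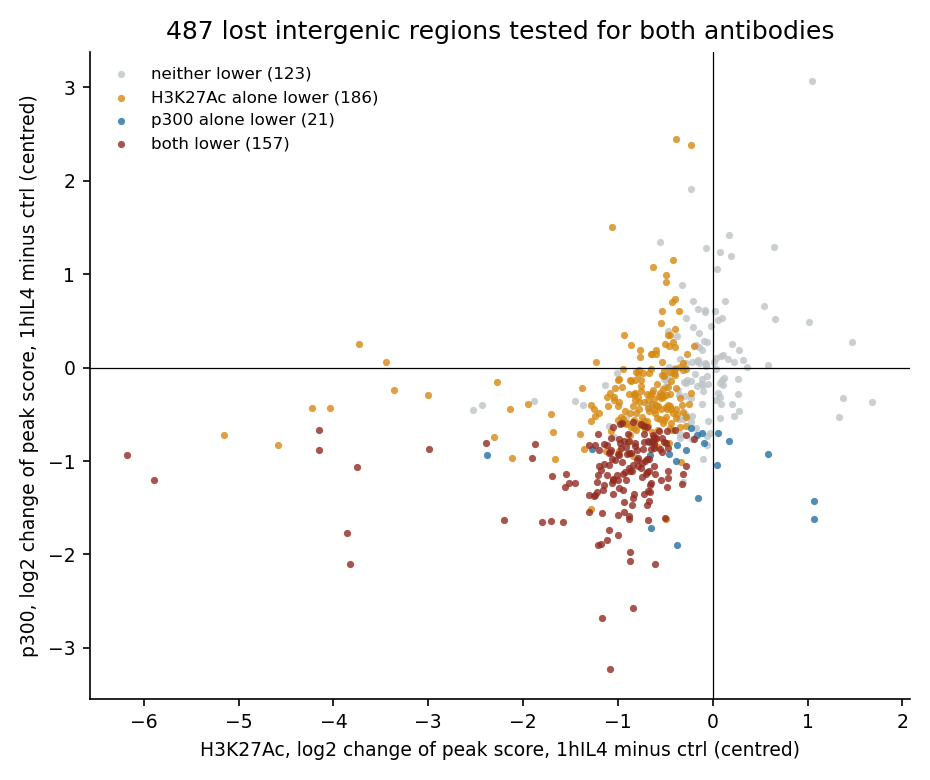
Centred log2 difference (1hIL4 minus ctrl) of H3K27Ac (x axis) and p300 (y axis) scores at the 487 lost regions tested for both, one point a region, coloured by which of the marks fell. Both fell at 157 regions in the lower left quadrant, and H3K27Ac alone fell at 186.

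Values of single regions show how the marks moved. At the strong member near Tec, H3K27Ac scores were 40.2 and 48.7 in ctrl and 19.9 and 17.0 in 1hIL4, a difference of −1.22 (SE 0.15, adjusted p = 0.0105). Its p300 scores were 75.19 and 220.71 in ctrl and 93.26 and 92.09 in 1hIL4, so the H3K27Ac groups were apart while the p300 groups overlapped before centring. At the Gstm4 member, which lies in an LTR element, H3K27Ac was 35.9 and 39.7 in ctrl and 27.5 and 23.3 in 1hIL4 (−0.53, SE 0.12, adjusted p = 0.0406). The Xirp1 member inside Cx3cr1 had 93.0 and 81.9 in ctrl and 32.8 and 29.2 in 1hIL4 (−1.45, SE 0.11, adjusted p = 0.0039). Cx3cr1, which hosts it by GENCODE, encodes a chemokine receptor of monocytes and resident macrophages. H3K27Ac at the first Tex35 member was 93.0 and 90.6 in ctrl and 43.0 and 46.2 in 1hIL4, and at the Zfpm1 member 86 and 71.2 in ctrl and 42.7 and 39.2 in 1hIL4. At the Itga4 member (chr2:79213843-79214504) it was 121.6 and 107.5 in ctrl and 63.9 and 73.2 in 1hIL4. Itga4 encodes the integrin alpha 4 chain and Zfpm1 a cofactor of GATA factors, and in all of these H3K27Ac fell with no overlap of the groups. The Icam2 member fell less, with 111.4 and 105.3 in ctrl and 84.8 and 66.3 in 1hIL4.

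The largest H3K27Ac differences by the naming rule came from regions that are absent from both 1hIL4 lists, which need not be a loss of acetylation. H3K27Ac regions were all called at a fixed width of 1001 bp, so a small shift of the called position can move a region off a member. The member near F830045P16Rik (chr2:129545513-129546113) had H3K27Ac of 709.7 and 648.9 in ctrl and none in 1hIL4 (−6.18), with the nearest 1hIL4 regions 30360 and 30378 bp away. The member near Fcgr1 (chr3:96301741-96302965), which encodes the high-affinity IgG receptor, had 578 and 539.5 in ctrl and none in 1hIL4 (−5.90). There, however, regions with scores of 517.9 and 502 lay 174 and 118 bp away in the 1hIL4 samples, and with peaks within 500 bp counted the difference was −0.09 and did not pass the threshold. Krt78 gave −5.15 and, with the same allowance, −0.30, and St3gal1, the gene of a sialyltransferase, gave −4.58. Of the 47 members with H3K27Ac in both ctrl and neither 1hIL4 sample, 9 had a region within 1000 bp in both 1hIL4 samples and 12 had ctrl scores of at least 100 in both.

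Members with H3K27Ac in all 4 samples, chosen here after their values were seen, had decreases that do not rest on an absent region. The part of a shift in the called position was not tested for them. The member near Kcnj16 at chr11:110698331-110698771, 269480 bp from the start site of this potassium channel gene, had 338.6 and 340.2 in ctrl and 93.7 and 82.6 in 1hIL4 (−1.90, SE 0.09, adjusted p = 0.00143). The Dtnbp1 member (chr13:45031471-45032178) had 90.6 and 89.0 in ctrl and 23.8 and 26.4 in 1hIL4 (−1.80). A pair of Zfat members stood close together, the first at chr15:67977410-67978032 with 124.3 and 120.6 in ctrl and 40.7 and 33.3 in 1hIL4 (−1.69). The other Zfat member, at chr15:67989489-67990025, had 193.1 and 190.6 in ctrl and 61.9 and 64.6 in 1hIL4 (−1.56, SE 0.05). In all 4 regions both 1hIL4 scores were far below both ctrl scores. Against the general direction, H3K27Ac rose at members near Mtss1 (none in ctrl, 20.5 and 25.7 in 1hIL4, 1.38), near Adgb (98.5 and 85.9 in ctrl, 182.4 and 187.5 in 1hIL4, 1.05) and near Nfil3, the gene of a bZIP factor (67.5 and 63.7 in ctrl, 128.8 and 128.8 in 1hIL4, 1.02). At the Adgb member p300 also rose, from 2.27 and 24.06 to 107.0 and 100.69 (3.06, SE 0.64, adjusted p = 0.0756), although RNAPII-pS5 was lost.

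For p300, the largest named negative differences were near Mef2a, which encodes a MADS-box factor (10.52 and 31.97 in ctrl, none in 1hIL4, −4.52), Prkrip1 (10.84 and 20.47 in ctrl, none in 1hIL4, −4.22), Akr1a1 (−3.95) and Gm1631 (−3.71). With peaks within 500 bp counted, the Mef2a member gave −0.07. Another Kcnj16 member at chr11:110692851-110693215, 5 kb from the one above, had p300 of 51.02 and 138.5 in ctrl and 19.47 and 22.69 in 1hIL4 (−2.75, SE 0.22, adjusted p = 0.0206). Here the lower ctrl sample was above both 1hIL4 samples without centring. The same held at the Nfkbiz member at chr16:55790279-55790675, with 17.51 and 53.52 in ctrl and 11.15 and 9.35 in 1hIL4 (−2.33, SE 0.22, adjusted p = 0.0224). Nfkbiz encodes IkB-zeta, a nuclear regulator of NF-kB.

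The same Nfkbiz member led the PU.1 decreases, with PU.1 scores of 9.91 and 10.85 in ctrl and none in 1hIL4 (−3.39). Arhgap23 (−3.18), Ctsh (−2.97), the gene of cathepsin H, and Cd101 (−2.89) followed, all with PU.1 in ctrl alone, so that the filter fixed their direction. PU.1 rose near Rfc2 (2.13), near BB123696 (5.87 and 5.92 in ctrl, 25.12 and 43.26 in 1hIL4, 2.09) and near S1pr1, which encodes a sphingosine 1-phosphate receptor (7.5 and 3.03 in ctrl, 18.99 and 17.5 in 1hIL4, 1.54). HDAC1 fell near F930015N05Rik (−2.98), 2810008D09Rik (−2.75), Acot1 (−2.72) and 1700029H14Rik (−2.68), each with HDAC1 in both ctrl and neither 1hIL4 sample, and rose near Lrig3, Ppp1r21 and Slfn2. HDAC2 fell near 1700022I11Rik, Slc39a10, Fbxl5 and Sdr16c6 and rose near Ass1, Lypd4 and Ncoa7. HDAC3 fell near Thbs1 (13.39 and 10.9 in ctrl, none in 1hIL4, −3.41), Gm13498, Marcks (10.37 and 8.03 in ctrl, none in 1hIL4, −3.00) and Xirp1 (19.56 and 12.75 in ctrl, 4.21 and none in 1hIL4, −3.00), and rose near Sucla2, Inhba and Rnls. None of these PU.1 and deacetylase calls passed adjustment, the smallest adjusted p among those named being 0.0933. In the libraries labelled 1hIL4, RNAPII-pS2 was higher near Nfkbid (none and 7.32 against 56.54 and 23.32, 3.40), Gm20822 on chromosome Y (3.29) and BC005537 (none and 3.1 against 20.67 and 20.42, 3.20). Of these, the BC005537 member also stood among the 15 strongest by ctrl RNAPII-pS5.

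Members were next grouped by the nearest gene, using lists of immune and signaling genes chosen with earlier results of these data known. Members near list genes were few, and each list is described by its counts beside the shares of all tested members (70.5% lower for H3K27Ac, 37.3% lower for p300).

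Feedback inhibitors of inflammatory signaling held 10 members at 6 genes, 1.09% of lost regions against 0.770% of all intergenic regions. H3K27Ac fell at 5 of 5 tested members, 1 of them near Spry2 with H3K27Ac in ctrl alone, and p300 fell at 6 of 9. The Nfkbiz member at chr16:55734045-55734425 had H3K27Ac of 37.5 and 39.4 in ctrl and 14.2 and 19.1 in 1hIL4 (−1.18, SE 0.17) and p300 of 16.96 and 52.7 in ctrl and 10.82 and 16.91 in 1hIL4 (−1.89). Dusp6, the gene of an ERK phosphatase, had a member 90947 bp away with H3K27Ac of 34.4 and 32.5 in ctrl and 18.5 and 17.7 in 1hIL4 (−0.84). Spry2, an inhibitor of growth factor signaling, had a member with 82.9 and 91.2 in ctrl and 51.7 and 58.0 in 1hIL4 (−0.62), and Nfkbid, which encodes a nuclear IkB protein, had 136.0 and 118.4 in ctrl and 99.7 and 93.0 in 1hIL4 (−0.35, adjusted p = 0.0618). All 4 pairs of groups were apart. The Dusp1 member, 4321 bp from the start site of the MAP kinase phosphatase gene and inside Dusp1 by GENCODE, had RNAPII-pS5 of 20.96 and 7.45 in ctrl and neither H3K27Ac nor p300 in any sample.

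Macrophage lineage factors and the growth factor receptor held 10 members at 7 genes (1.09% against 1.23% of all intergenic regions), with H3K27Ac lower at 4 of 7 and p300 lower at 5 and higher at 1 of 10. The Irf8 member, 10921 bp upstream of the gene of a lineage-determining interferon regulatory factor, had H3K27Ac of 35.3 and 40.3 in ctrl and 19.9 and 22.2 in 1hIL4 (−0.80, SE 0.11) and a p300 difference of −0.99. The Mef2c member, 438925 bp away, had 208.1 and 199.9 in ctrl and 94.0 and 92.0 in 1hIL4 (−1.09, SE 0.06). Maf had 2 members with unlike changes. At chr8:115398121-115398455 H3K27Ac was 24.6 and 25.6 in ctrl and 17.5 and 18.7 in 1hIL4 (−0.43), whereas at chr8:115392379-115392772, less than 6 kb away, p300 rose from 41.03 and 157.11 to 210.83 and 214.81 (0.66, adjusted p = 0.173).

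Receptors and sensors gave single regions. Among 4 members at chemokine and formyl peptide receptor genes, H3K27Ac fell at 2 of 2 and p300 at 3 of 3 tested. The Cxcr4 member had H3K27Ac of 47.3 and 50 in ctrl and 23.5 and 26.0 in 1hIL4 (−0.93), and the Fpr2 member, inside Fpr3 by GENCODE, had 125.9 and 126.5 in ctrl and none in 1hIL4 (−3.75). At Fpr2 the nearest 1hIL4 regions, with scores of 35.4 and 35.1, lay 181 and 95 bp away. Of 2 members at TLR and LPS sensing genes, Ly96, the gene of the TLR4 partner MD-2, had 27.9 and 28.4 in ctrl and 17.2 and 16.3 in 1hIL4 (−0.71), and Tlr5, the flagellin receptor gene, had 16.6 and 17.8 in ctrl and 13.6 and 11.1 in 1hIL4 (−0.44). H3K27Ac thus fell at both. Of 2 C-type lectin and Fc receptor members, Fcgr1 is described above and Clec12a had 73.1 and 67.2 in ctrl and none and 27.1 in 1hIL4 (−2.11). Il13ra1, which encodes a receptor chain for IL-13 and IL-4, had the only member of the IL-4 response list, with H3K27Ac of 133.2 and 126.2 in ctrl and 62.9 and 54.5 in 1hIL4 (−1.10, SE 0.10).

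Secreted factors and lipid genes were as sparse. The inflammatory cytokine list had 2 members without testable H3K27Ac, near Il10 and near Csf2, the gene of GM-CSF. Their p300 scores were 24.42 and 75.23 in ctrl and 41.49 and 41.79 in 1hIL4 at Il10 (−0.79) and 33.1 and 95.56 in ctrl and 48.83 and 43.41 in 1hIL4 at Csf2 (−1.04). Both pairs of groups overlapped before centring. At Ifnb1, the interferon beta gene, the member had H3K27Ac of 25.5 and 22.2 in ctrl and 9.9 and none in 1hIL4 (−1.28). At Abca1, which encodes a cholesterol exporter, the member had 93.3 and 92.8 in ctrl and 33.1 and 41.3 in 1hIL4 (−1.29, SE 0.13, adjusted p = 0.00672). The AP-1 and immediate early list had 4 members (Ier5 with 2, Jun, Fosb), with H3K27Ac lower at 1 of 2 and p300 lower at 2 of 4. The larger Ier5 difference (151.9 and 155.3 in ctrl, none in 1hIL4, −4.03) again came from a region absent in 1hIL4, with others of 179.1 and 172.5 lying 4148 and 4091 bp away. Chemokines (Ccl5), the TGF-beta pathway (Tgfbr2) and scavenger receptors (Cd5l) had 1 member each, and inflammasome genes, T and B lymphocyte markers and granulocyte and mast cell markers had 0. The list of stromal, endothelial and epithelial markers had 2 members, both near the epithelial gene Epcam, which passed no H3K27Ac or p300 test.

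The genes with 4 or more members differed among themselves. At Supt20, whose product is part of the SAGA acetyltransferase complex, H3K27Ac fell at 3 of 3 tested members. Scores were 47.6 and 45.6 in ctrl and 29.8 and 34.4 in 1hIL4 at the nearest, 56.5 and 56.9 against 24.5 and 33.7 at the next, and 129.8 and 115.0 against 68.9 and 79.5 at the next. At Marcks, H3K27Ac fell at 1 of the 2 members tested, from 50.6 and 57.5 to 31.5 and 29.2 (−0.79), and the 5 Zfp386 members in the immunoglobulin locus had no H3K27Ac in any sample but p300 in all 4.

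The study grouped genes by RNA-seq of IL-4-treated macrophages into clusters a to e, of which a to d were induced and e had lower RNA after IL-4. These clusters come from other samples of the same study. The nearest gene belonged to cluster e for 114 members at 89 genes, 12.4% of lost regions, against 7.59% of all intergenic, 7.69% of kept and 2.89% of gained regions. Of the induced clusters, a had 0 members, b had 11 (1.20% against 2.45% of all intergenic regions), c had 15 (1.63% against 4.23%) and d had 30 (3.27% against 3.77%), so that d stood close to its share of all intergenic regions. At members near cluster e genes, H3K27Ac fell at 54 of 69 tested and rose at 0 (median −0.70), and p300 fell at 49 and rose at 3 of 104. Near cluster b genes H3K27Ac fell at 0 and rose at 3 of 4, near cluster c genes it fell at 4 and rose at 1 of 9, and near cluster d genes it fell at 12 and rose at 1 of 19.

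Motif matches were counted in the 200-base window of every region, as a description of the letters there. The STAT6 motif (TTC, any 4 bases, GAA) stood in 3.05% of lost, 6.48% of kept, 29.2% of gained and 6.19% of all RNAPII-pS5 regions. The STAT motif with the 3-base spacer stood in 5.56% of lost and 6.35% of all regions. AP-1 (TGANTCA) was found in 18.6% of lost regions against 13.7% of kept and 10.4% of all, C/EBP (TTGCNNAA) in 17.3% against 12.0% and 10.2%, and RUNX (TGTGGT) in 24.9% against 19.1% and 16.8%. The PU.1 core (AGGAAG) was found in 43.7% against 47.7% and 40.3%. NF-kB (GGGNNNTCC) stood in 6.54% of lost and 10.8% of all regions, and IRF (GAAA, any 2 bases, GAAA) in 4.03% and 3.44%. The median GC content of the window was 47% in lost, 49% in kept, 46% in gained and 50.5% in all regions, which moves with how often a motif of given letters occurs, and its part in these shares was not tested. Matches of different motifs may share bases, as the PU.1 core and the STAT motifs can at GGAA.

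**Figure D4:**
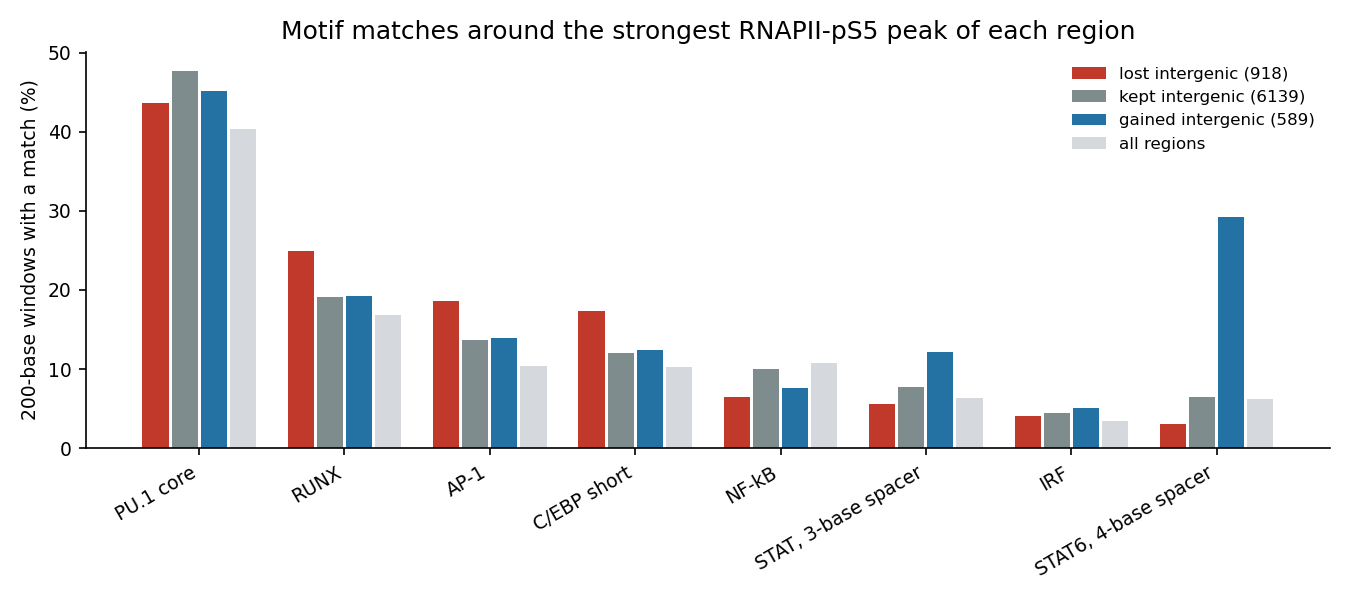
Percent of 200-base windows with at least 1 match to each of 8 motifs, on either strand, in lost, kept, gained and all merged RNAPII-pS5 regions. The STAT6 motif stands in 3.05% of lost and 29.2% of gained regions, and the AP-1, C/EBP and RUNX bars are highest for lost regions.

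The pretreatment experiment gave samples that the rule did not use. In its untreated samples (ctrl_ctrl) RNAPII-pS5 peaks overlapped 29.0% and 28.8% of the lost regions in the 2 replicates, and both replicates had one at 177 members (19.3%), against 58.4% of kept regions. Most lost regions thus did not recur as called peaks in these lists, which hold fewer peaks. After 24 hr of IL-4, 30.2% and 32.1% of members had a peak, 205 (22.3%) in both replicates, against 61.8% of kept regions. At 64 members both ctrl_ctrl samples and neither 24hIL4_ctrl sample had a peak, and at 85 the reverse held. With LPS, 24.0% and 26.0% had a peak, 175 (19.1%) in both replicates, and with IL-4 before LPS 22.7% and 22.3%, 158 (17.2%) in both. No RNAPII-pS5 peak was found in any of the 8 samples at 311 members (33.9%), against 11.0% of kept regions.

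RNAPII-pS2 peaks of the pretreatment experiment overlapped 342 members in both ctrl_ctrl samples, 360 in both 24hIL4_ctrl, 358 in both ctrl_1hLPS and 339 in both 24hIL4_1hLPS samples. p65 peaks were rarer without LPS. They overlapped 13.6% and 13.5% of members in ctrl_ctrl, 16.8% and 14.7% in 24hIL4_ctrl, 40.1% and 41.8% in ctrl_1hLPS and 47.2% and 50.1% in 24hIL4_1hLPS samples. Both ctrl_1hLPS samples and neither ctrl_ctrl sample had p65 at 187 members (20.4%), against 16.1% of kept regions. The p65 lists held 9556 to 38955 peaks, and the lists with LPS were the longer ones.

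**Figure D5:**
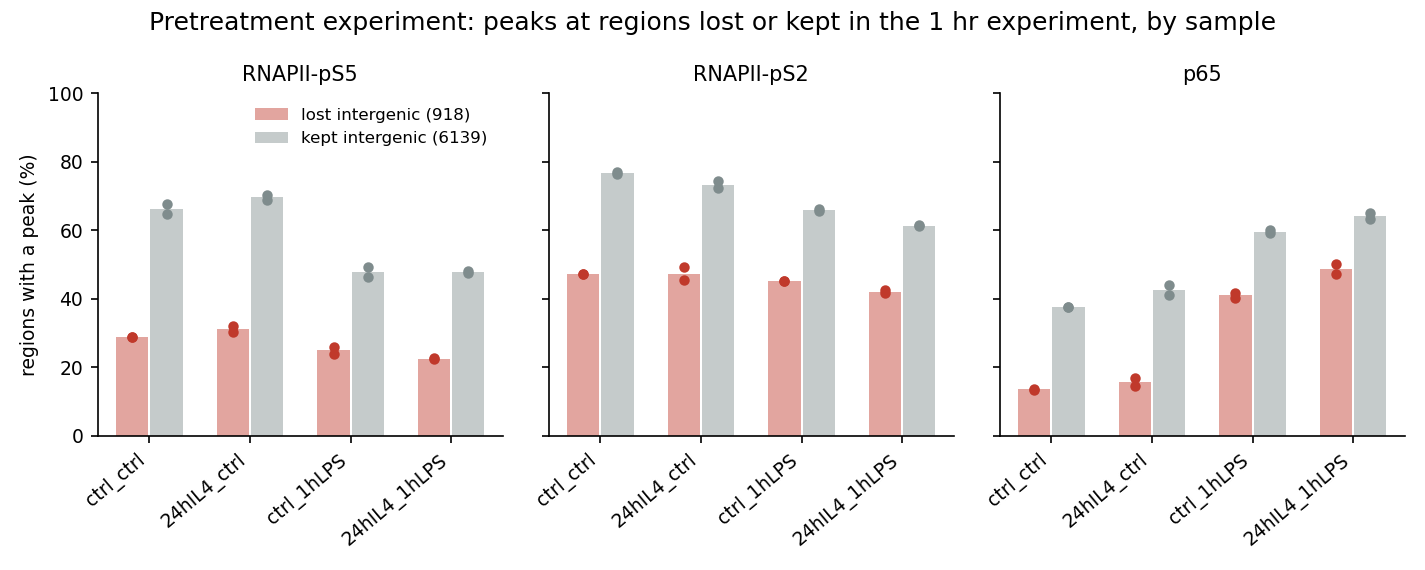
Percent of lost and kept intergenic RNAPII-pS5 regions with a peak of RNAPII-pS5, RNAPII-pS2 or p65 in the 4 conditions of the pretreatment experiment. Bars are means of 2 samples and points are the samples; p65 rises from 13.6% and 13.5% of lost regions in ctrl_ctrl to 40.1% and 41.8% in ctrl_1hLPS, and RNAPII-pS5 stays between 22.3% and 32.1%.

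In the limma fits of this experiment, 473 members could be tested with RNAPII-pS5 (23 of them with a peak in every sample), 646 with RNAPII-pS2 (118) and 474 with p65 (40). The comparisons share control samples, namely ctrl_ctrl in the 24 hr IL-4 and the LPS comparison and ctrl_1hLPS in the comparison with and without IL-4 before LPS, and their counts are given side by side. After 24 hr of IL-4, RNAPII-pS5 fell at 73 members (15.4%) and rose at 101 (21.4%), against 12.1% and 15.3% of all tested regions. Most of these calls had a direction that the filter fixed, since 61 of the 73 came from members with peaks in ctrl_ctrl alone and 83 of the 101 from members with peaks in 24hIL4_ctrl alone. Among the 80 members with a peak in both samples of both groups, 3 fell and 4 rose. With LPS it fell at 93 (19.7%), 82 of them with peaks in ctrl_ctrl alone, and rose at 106 (22.4%), 72 of them with peaks in ctrl_1hLPS alone, against 27.3% and 12.2%. Of the 60 members with a peak in both samples of both groups, 3 fell and 12 rose. With IL-4 before LPS, next to LPS alone, it fell at 68 (14.4%), 39 of them with peaks under LPS alone, and rose at 39 (8.25%), 26 of them with peaks in 24hIL4_1hLPS alone, against 9.13% and 13.1%. Here 18 fell and 7 rose of the 102 members with a peak in both samples of both groups. A direct test of whether the IL-4 difference changed with LPS, the interaction, was past the threshold at 155 members (32.8%), lower at 97 (20.5%) and higher at 58 (12.3%), against 13.1% and 12.9% of all regions. With a peak in every sample it was past the threshold at 4 of 23 members.

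RNAPII-pS2 fell at 129 (20.0%) and rose at 170 (26.3%) members after 24 hr of IL-4, against 17.7% and 16.4% of all regions, and of the 193 members with a peak in both samples of both groups 21 fell and 36 rose. With LPS it fell at 126 (19.5%) and rose at 172 (26.6%), against 25.0% and 15.8%, with 16 lower and 55 higher of the 202 members with a peak in both samples of both groups. With IL-4 before LPS it fell at 84 (13.0%) and rose at 77 (11.9%), against 9.73% and 11.6%, with 22 lower and 29 higher of 269 such members. p65 fell at 59 (12.4%) and rose at 182 (38.4%) with LPS, against 15.7% and 27% of all regions. Of the 59, 8 had p65 in ctrl_ctrl alone, 10 had it in both samples of both groups, and 41 came from other mixtures of peaks. Such mixtures include members with p65 in neither group. Centring took 1.08 off this difference, so that a member with p65 in neither group had a negative value. Of the 182, 150 came from members with p65 in the ctrl_1hLPS samples alone, and with p65 in every sample 11 rose and 11 fell of 40. Without centring, p65 rose at 252 members with LPS and fell at 7, and with the same number of peaks taken from every list it rose at 79. With IL-4 before LPS, p65 fell at 38 (8.02%) and rose at 89 (18.8%), against 6.69% and 16.2%, which is near the background, and 21 fell and 24 rose of the 283 members with p65 in both samples of both groups.

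Single members show each pattern. Where a member has peaks in 1 group alone, its direction follows from the filter and the size from the lowest score given to missing peaks, so the log2 value is a description. Near 4930486L24Rik RNAPII-pS5 was 17.42 and 21.31 in ctrl_ctrl and absent in the other 6 samples (24 hr IL-4 −3.75). Near Bank1, a scaffold protein gene of B cell signaling, it was 17.81 and 15.37 in ctrl_ctrl, absent in 24hIL4_ctrl and 9.86 and 3.87 in ctrl_1hLPS (24 hr IL-4 −3.53). Prps2 (−3.22) and Arhgap5 (−3.08) also fell, and all 4 members had peaks in both ctrl_ctrl and neither 24hIL4_ctrl sample. The opposite was seen near Pgls, absent in ctrl_ctrl and 25.66 and 21.47 in 24hIL4_ctrl (4.02), near Asb4 (20.49 and 21.48 in 24hIL4_ctrl, 3.85) and near Ctf2 (12.86 and 25.79, 3.65). With peaks within 500 bp counted, Asb4 gave 0.28.

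LPS brought RNAPII-pS5 to some members. Near 1700016G22Rik it was absent in ctrl_ctrl and 47.34 and 43.26 in ctrl_1hLPS (5.15), at the Zfat member at chr15:67781734-67782301 it was 39.45 and 27.47 (4.69), and at the Maf member at chr8:115392379-115392772 it was 21.36 and 25.44 (4.19). All 3 kept a peak with IL-4 before LPS, the Zfat member at 24.78 and 15.98 and the Maf member at 17.19 and 16.72. It fell with LPS near 4930486L24Rik, Prps2, Pdzrn3 and Klhl24. Other members had RNAPII-pS5 with LPS that was absent with IL-4 before it. The Irf8 member had 11.06 and 12.46 in ctrl_1hLPS and none in any other sample (−3.22). The Osbpl8 member had 12.71 and 17.46 in ctrl_1hLPS and none in 24hIL4_1hLPS (−3.57), Trim24 20.35 and 11.3 (−3.59), and Tec 12.35 and 11.78 (−3.26, adjusted p = 0.0665). Mettl2 (3.12), Ctf2 (2.88) and Rps6ka2 (2.75) moved the other way.

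The Fcgr1 member had RNAPII-pS5 in all 8 samples. Its scores were 13.8 and 8.76 in ctrl_ctrl, 10.3 and 15.2 in 24hIL4_ctrl, 41.9 and 48.9 in ctrl_1hLPS and 20 and 21.7 in 24hIL4_1hLPS. They rose with LPS (2.22) and were lower with IL-4 before LPS than with LPS alone (−1.31, adjusted p = 0.0628), and p65 appeared there with LPS at 26.8 and 13.9. The Abca1 member had RNAPII-pS5 of 22.8 and 14.2 in ctrl_1hLPS, none in ctrl_ctrl, and 5.72 and 7.57 in 24hIL4_1hLPS (−1.65, adjusted p = 0.0766), with p65 of 32.9 and 32.5 under LPS. The Csf2 member had 10.9 and 8.61 in ctrl_1hLPS and 6.03 and 4.53 in 24hIL4_1hLPS (−1.09). At these 3 members, given as examples, the groups with LPS did not overlap, and RNAPII-pS5 was lower where IL-4 came first. Over the 102 members with a peak in both samples of both groups, 18 were called lower and 7 higher. Of 1939 such kept regions 356 were lower and 111 higher.

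The largest p65 differences with LPS were near Siglecg, a sialic acid-binding inhibitory receptor gene (none in ctrl_ctrl, 125.89 and 115.95 in ctrl_1hLPS, 5.45), Amer2 (65.56 and 75.98, 4.67) and Smad1, which encodes a mediator of BMP signaling (56.38 and 43.04, 4.15), and the Irf8 member had p65 of 43.8 and 41.9 (3.95). p65 fell with LPS near Bbs10 (−3.66), Lgals7 (−3.41), Aga (−3.25) and Nrp1 (−3.01), all from ctrl_ctrl scores below 12. With IL-4 before LPS, p65 was found where LPS alone gave none near 4930578N18Rik (30.75 and 28.0, 4.23), Gm8883 (32.22 and 21.77, 4.09) and Inhba, the activin A subunit gene (27.53 and 24.58, 4.06), and it was lower near BB123696 (13.21 and 6.96 with LPS alone, none with IL-4 first, −3.12, and −0.51 with peaks within 500 bp counted), Gramd1a, also with none, and Armc3 (14.31 and 13.56 with LPS alone, none and 3.41 with IL-4 first, −2.97). The Inhba member also had RNAPII-pS2 of 36.55 and 42.02 after 24 hr of IL-4 and none in ctrl_ctrl (4.87). RNAPII-pS2 at the Siglecg member was absent in ctrl_ctrl, 37.14 and 45.72 in 24hIL4_ctrl (4.95) and 65.89 and 54.42 in ctrl_1hLPS, and at the Etv1 member 38.87 and 40.18 in 24hIL4_ctrl (4.89) and 60.81 and 75.56 in ctrl_1hLPS (5.44). Nnat rose with LPS as well (4.91). RNAPII-pS2 fell after 24 hr of IL-4 near 4930548J01Rik (27.48 and 30.11 in ctrl_ctrl, none after, −4.31), Ctss, the cathepsin S gene (25.0 and 14.83 in ctrl_ctrl, none after, −3.73), Itga4 and Glul. With IL-4 before LPS it fell near Tlk1 (34.45 and 28.8 in ctrl_1hLPS, none after, −4.45), F930015N05Rik, Gsdmc and 4933402J15Rik.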

How the data were processed

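Per the labels and the submitters' processing notes, the authors aligned ChIP-seq reads to mm10 with BWA (0.7.10), handled them with SAMtools (0.1.19), called peaks of each sample with MACS2 (2.0.10, q-value of at most 0.01 per the study's methods) or, for H3K27Ac, with HOMER (4.2) findPeaks in histone style, took out blacklisted regions and added annotation with HOMER. The deposited MACS2 lists hold a peak score on a −log10 scale, of either the p-value or the q-value (which of them is not given in the sources used here). The deposited H3K27Ac lists hold a signal, the normalized tag number of regions that are all 1001 bp long. No read counts were used, so that depth is unknown; the lists held 8440 to 71027 peaks in the 1 hr experiment and 9556 to 38955 in the pretreatment experiment. No input control is stated.

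From these lists, peaks of the 4 RNAPII-pS5 samples were merged, and each merged region received the highest score of an overlapping peak of every other sample. Scores were put on a log2 scale with the antibody's lowest score for missing peaks. Each sample was centred on its median over the regions with a peak in every sample of the fit. The scores were fitted with limma (3.58.1, R 4.3.3, lmFit and eBayes) over regions with a peak in at least 2 samples. Peak shares were compared with a two-sided exact permutation test. The fits were tested on simulated scores with the same noise in every region and no missing peaks. That setting does not cover members with peaks in 1 group alone. The other tools were Python 3.11.15, pandas 2.3.3, numpy 2.4.6, scipy 1.17.1, samtools 1.23.1 and minimap2 2.31. Sequences were read from the GRCm38.p6 reference, the same assembly as mm10, and genes from GENCODE vM21. Named members were the 15 with the highest lower-of-2 ctrl score, nearest genes with 4 or more members, up to 4 members per gene list, and the 4 lower and 3 higher members with the largest change per fit and with a peak in both samples of a group. Members and lists were chosen with earlier results of these data known. Samples with the same replicate number did not deviate together (correlations of 0.0025 to 0.0813 in the 1 hr and −0.0351 to 0.0211 in the pretreatment experiment), so replicate numbers were not taken as pairs.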

Additional observations from a re-analysis of the deposited data

Results flagged for a closer look

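Some members differed in their RNAPII-pS5 response to 24 hr of IL-4 between cells without and with LPS, by the limma interaction term. The member near Pitx1 (chr13:55895555) had an interaction of −4.29 (SE 0.89, adjusted p = 0.032), with 5.16 and none in ctrl_ctrl, 6.9 and 5.27 in 24hIL4_ctrl, 14.66 and 8.61 in ctrl_1hLPS and none in 24hIL4_1hLPS. The member near Pgls had −4.21, with a peak in the 2 24hIL4_ctrl samples and no other. The members near 4930486L24Rik (3.56) and Prps2 (3.03) had peaks in ctrl_ctrl alone, so that the values of these 3 members rest on 2 samples with a peak and 6 at the lowest score and are a description. Over all tested members 92 of 473 passed the adjusted test, next to 2983 of all 24014 tested regions. These counts include members with peaks in 1 group alone, whose sign follows from the filter, and were not split by this. Of kept regions 537 of 5048 passed, and of gained regions 68 of 241. No cause was tested.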

How the results depend on the processing

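Under other settings the H3K27Ac count (346 lower) stayed within 1.5 times in every alternative run, leave-one-out fits included (263 to 334). The p300 count of 292 rested on centring (9 without it) and became 50 after Benjamini-Hochberg adjustment. PU.1 gave 24 without centring and 0 adjusted. HDAC1 gave 39 with the floor doubled, 55 with equal numbers of peaks, 8 with a peak in every sample and 0 adjusted. HDAC2 gave 17 and 0, and HDAC3 16 and 0, in the last 2 settings. RNAPII-pS2 of the 1 hr experiment, with 0 lower, gave 1 with the floor doubled, 2 with a peak in every sample and 2 with peaks within 500 bp. The rule itself gave 399 regions at a ctrl score of at least 5, 901 with a 50% overlap of the shorter peak and 740 with equal numbers of peaks.
With a peak in every sample, which leaves few members, the pretreatment counts were 3 (RNAPII-pS5, 24 hr IL-4), 9 (LPS, higher) and 6 (IL-4 before LPS), 14, 45 and 12 for RNAPII-pS2, 11 and 3 for p65, and 4 for the interaction. After adjustment they were 32 for RNAPII-pS5 and 36 for RNAPII-pS2 (IL-4 before LPS), 16 for p65 (IL-4 before LPS) and 92 for the interaction. With equal numbers of peaks p65 rose at 79 members with LPS.
Leaving out 1 sample at a time gave 1321 to 2672 lost regions, since the rule then needs fewer samples, and lower counts of 134 to 316 for p300 (134 and 150 without 1hIL4 replicate 1 and 2), 21 to 68 for PU.1 (21 without ctrl replicate 2), 2 to 107 for HDAC1 (4 and 2 without ctrl replicate 1 and 2), 11 to 77 for HDAC2 (14 and 11 without ctrl replicate 1 and 2, 77 without 1hIL4 replicate 1), 6 to 33 for HDAC3 (13 and 6 without ctrl replicate 1 and 2) and 0 to 2 for RNAPII-pS2. In the pretreatment experiment the ranges were 38 to 75, 87 to 94 and 51 to 60 for RNAPII-pS5, 67 to 128, 148 to 162 and 62 to 76 for RNAPII-pS2, 154 to 171 and 27 to 36 for p65, and 112 to 151 for the interaction. In these fits a group with 1 sample is assumed to vary like the others.
With a replicate block the counts were 342 for H3K27Ac, 246 for p300, 68 for PU.1, 78 for HDAC1, 56 for HDAC2, 34 for HDAC3 and 0 for RNAPII-pS2, then 75, 104 and 68 for RNAPII-pS5, 128, 169 and 80 for RNAPII-pS2, 178 and 33 for p65 and 148 for the interaction, all within 1.5 times. Of 903 values of the named members under other settings, 857 kept direction and side of the threshold, 46 missed the threshold and 0 reversed. Settings in which a named member was not in the fit were not counted. Named members were picked for large changes, and many had peaks in 1 group alone, where the filter fixed the direction. For these members the lack of reversals was largely set in advance. The causes were not tested.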
